A study of Mus musculus with 18 samples.

Results

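A set of 9 genes known as markers of thalamic neurons was followed through 18 RNA-seq libraries that were labelled as mouse striatum. The genes were Tcf7l2, Lef1, Prkcd, Ramp3, Calb2, Tnnt1, Synpo2, Plekhg1 and Ntng1, which are 9 of the 55421 genes in the deposited count table. They were chosen from their levels in these same libraries, as genes that could report thalamic tissue in a striatal dissection, so their levels are given as a description and carry no test of that choice. Every member was matched by its Ensembl identifier, every member had reads in all 18 libraries, and all 9 passed the filter on low counts.

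The thalamus lies behind and medial to the striatum, and most of its neurons are glutamatergic cells that send axons to the cortex and to the striatum. Their cell bodies, where most messenger RNA is held, stay in the thalamus, whereas the striatum itself consists largely of GABAergic spiny projection neurons, which carry dopamine receptors and the phosphoprotein DARPP-32 (Ppp1r1b). Adult thalamic neurons keep expressing transcription factors of the TCF/LEF family, which switch on genes when the Wnt pathway stabilises β-catenin, and they load glutamate into vesicles with the transporter VGLUT2 (Slc17a6). None of the members is expressed in the thalamus alone. Tcf7l2 is also made in the oligodendrocyte lineage, and Calb2 is also made in interneurons of many forebrain regions.

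The study asked how the loss of 1 allele of CK2α', a catalytic subunit of protein kinase CK2 that is encoded by Csnk2a2, alters the striatum of Huntington's disease mice. The libraries came from C57BL/6 mice of 12 to 14 months in 4 genotypes, with 1 library per mouse. There were 5 WT mice, 5 zQ175 mice (heterozygous for a mutant Huntingtin allele with an expanded CAG repeat, knocked in at the mouse gene), 3 CK2a'(+/-) mice that lacked 1 CK2α' allele, and 5 zQ175:CK2a'(+/-) mice that carried both changes. Mice of both sexes were used in unequal ratios between the genotypes, and the labels give no sex for a single library, so sex was not a term in any fit. The libraries held between 13612381 and 22702547 counted reads, and levels below are CPM, that is, reads of a gene per 1000000 reads of its library, with library sizes scaled by the trimmed mean of M values (TMM).

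Several libraries stood apart in genes that are not members, and what this means for the members was not tested. Csnk2a2 followed the labels, at 31.6 ± 2.26 CPM in WT (SD, n = 5) and 34.9 ± 2.29 CPM in zQ175 (SD, n = 5) against 16.7 ± 1.78 CPM in CK2a'(+/-) (SD, n = 3) and 17.6 ± 1.64 CPM in zQ175:CK2a'(+/-) (SD, n = 5). Transthyretin (Ttr), the main secreted product of the choroid plexus, lay between 907 and 2901 CPM in WT replicates 1 and 3, CK2a'(+/-) replicate 1 and zQ175:CK2a'(+/-) replicate 2, and at no more than 10.5 CPM in the other 14 libraries. zQ175 replicate 5 had the highest level of Slc17a7, the vesicular glutamate transporter of cortical and hippocampal neurons, at 201 CPM, where the other libraries reached at most 66.8 CPM. The projection-neuron gene Adora2a, an adenosine receptor of the indirect pathway, was at 48.9 and 61.9 CPM in WT replicates 4 and 5, near the zQ175 libraries, and between 120 and 174 CPM in WT replicates 1 to 3. In bulk tissue, fewer cells of a type and less RNA per cell cannot be told apart.

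All 9 members varied more between mice of the same genotype than between genotypes. The spread of log2 CPM over the 18 libraries (SD) ran from 0.81 for Synpo2 to 1.95 for Prkcd, whereas the median SD over the 20914 genes tested was 0.35. The share of a member's variance that lay between the 4 genotypes was between 4.91% (Lef1) and 11.7% (Ntng1), with a median of 8.15%, where the median over all genes tested was 19.1%. High and low libraries occurred within each genotype. The ranges of the 4 genotypes overlapped in 54 of 54 pairwise comparisons over the 9 members. No such count was made over all genes, so this one only describes the members.

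**Figure D1:**
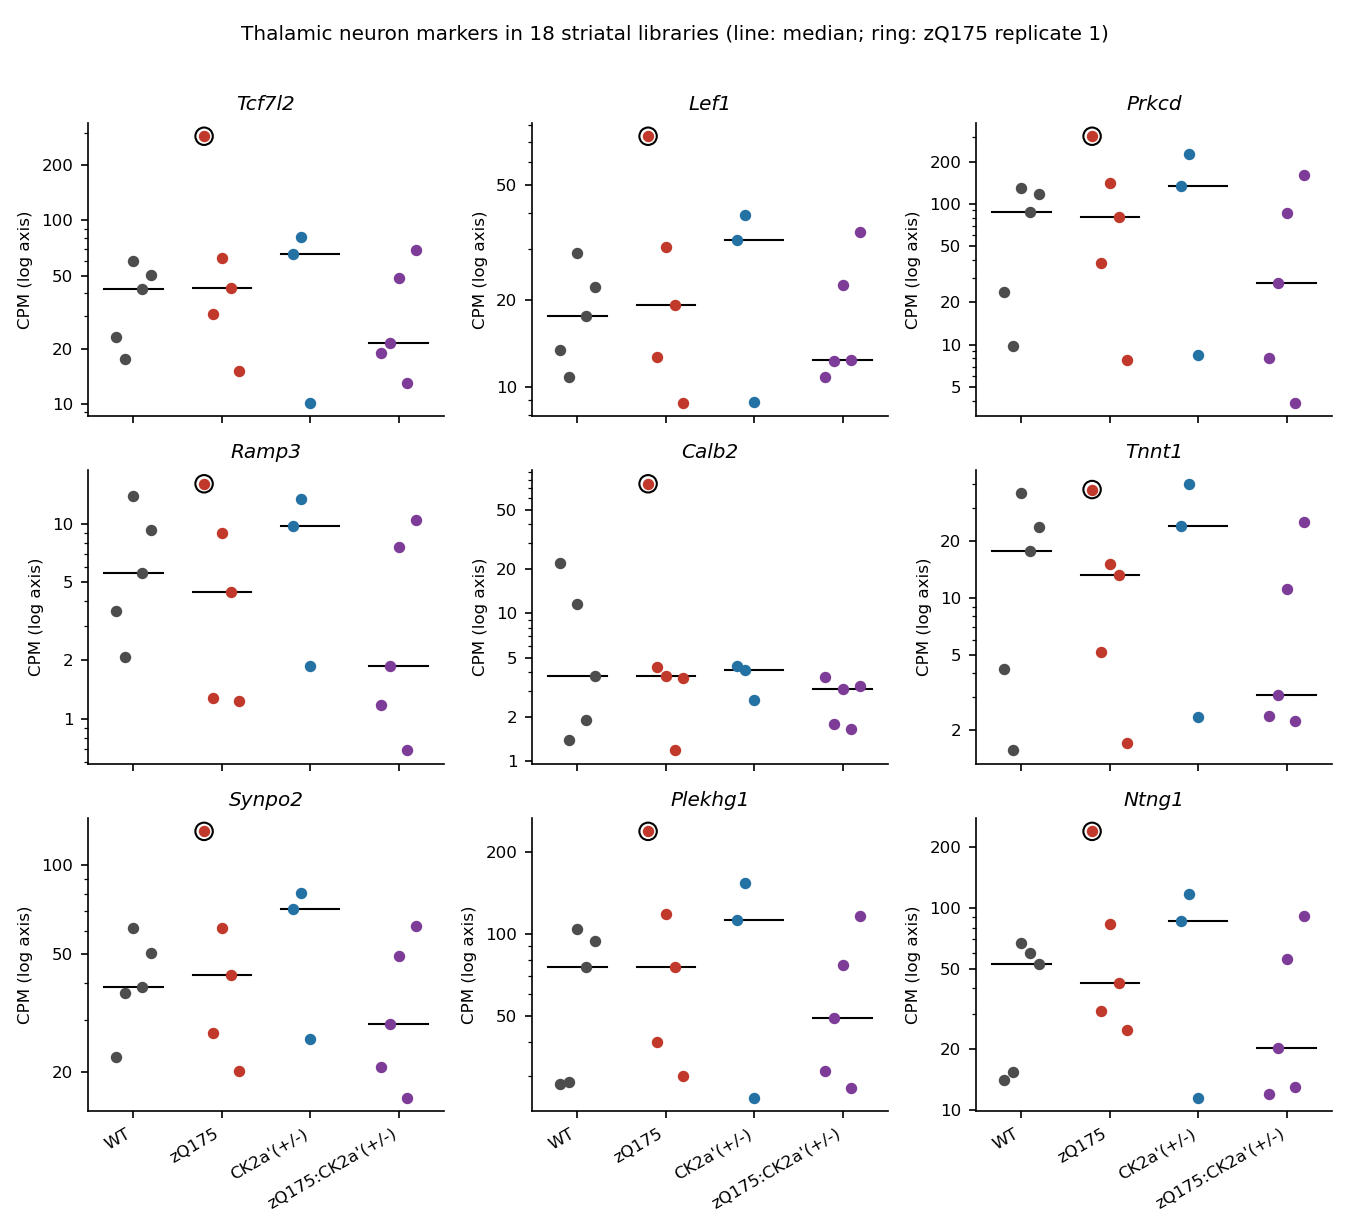
CPM of each thalamic marker (vertical log axis, own scale per gene) in each library, grouped by genotype on the horizontal axis, with 1 point per mouse, replicates in order from left to right and the genotype's median as a line. The ringed zQ175 replicate 1 is the highest library for 8 of the 9 genes, and the genotypes overlap for all 9.

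One library lay above the rest. zQ175 replicate 1 was the highest of the 18 libraries for 8 of the 9 members, and for Tnnt1 it was second at 37.5 CPM after CK2a'(+/-) replicate 2 at 40.2 CPM. The summed level of the 9 members was 1399 CPM there, 758 CPM in CK2a'(+/-) replicate 2, the next highest, and 90.1 CPM in zQ175:CK2a'(+/-) replicate 4, the lowest. The mean of the members' log2 CPM was 6.77 in zQ175 replicate 1 and 5.68 in CK2a'(+/-) replicate 2. The next 4 libraries, WT replicate 3, zQ175:CK2a'(+/-) replicate 5, CK2a'(+/-) replicate 1 and zQ175 replicate 3, lay between 5.14 and 5.45. At the low end, zQ175:CK2a'(+/-) replicates 4 and 1, CK2a'(+/-) replicate 3, zQ175 replicate 5 and WT replicate 2 lay between 2.62 and 3.04. Each genotype had at least 1 library in the upper 6 and at least 1 in the lower 5 of this order.

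Tcf7l2 and Lef1 encode the TCF/LEF transcription factors of the set. Tcf7l2 (ENSMUSG00000024985, GRCm38, chr19:55741820-55933654, plus strand) was at 23.1, 17.5, 60.3, 42.2 and 50.5 CPM in WT replicates 1 to 5 and at 287, 30.8, 62.4, 43.0 and 15.0 CPM in zQ175 replicates 1 to 5. It was at 65.4, 81.1 and 10.1 CPM in CK2a'(+/-) replicates 1 to 3 and at 19.0, 21.6, 48.3, 12.9 and 69.2 CPM in zQ175:CK2a'(+/-) replicates 1 to 5. Apart from zQ175 replicate 1, the libraries lay between 10.1 and 81.1 CPM with overlapping genotypes, and zQ175 replicate 1 was 3.54-fold above the highest of them, CK2a'(+/-) replicate 2. Lef1 (ENSMUSG00000027985, chr3:131110471-131224356, plus strand) ran from 8.81 CPM in zQ175 replicate 5 and 8.87 CPM in CK2a'(+/-) replicate 3 to 39.2 CPM in CK2a'(+/-) replicate 2 and 73.4 CPM in zQ175 replicate 1. An annotated antisense gene, Gm43352, shares 1208 bases with exons of Lef1, 13.7% of its exonic length. That gene had a median of 0.327 CPM, and whether reads were counted by strand is not given in the sources used here.

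The TCF/LEF factors bind DNA at the core motif CTTTGAT or CTTTGTT, and promoter sequence is shown here to place these letters at the members. RefSeq start-site windows (GRCm38.p6) were matched for 8 members, 13 windows in all, and none was matched for Calb2. In the 250 bases before the start, 2 of the 13 windows (15.4%) held either motif on either strand, against 2648 of 32851 windows over all genes (8.06%) and 1 of 13 windows (7.69%) of 12 other thalamic genes. Both were internal start sites, 1 of Tcf7l2 and 1 of Prkcd. The stretches below are 80 bases each, 5′ to 3′ on the strand of the gene, with the motif in capitals (in Prkcd it reads as its reverse complement), and the first start of Tcf7l2 and an internal start of Lef1 are given as windows without these letters.
Tcf7l2 internal start, chr19:55895241-55895320: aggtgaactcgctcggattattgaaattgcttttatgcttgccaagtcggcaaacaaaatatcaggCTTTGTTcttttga
Prkcd internal start, chr14:30610481-30610560: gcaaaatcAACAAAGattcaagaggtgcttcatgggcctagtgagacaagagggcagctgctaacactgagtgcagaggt
Tcf7l2 first start, chr19:55741730-55741809: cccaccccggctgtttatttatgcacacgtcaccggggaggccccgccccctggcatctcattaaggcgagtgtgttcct
Lef1 internal start, chr3:131112711-131112790: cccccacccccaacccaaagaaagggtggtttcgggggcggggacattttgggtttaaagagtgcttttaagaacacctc
A match is a description of these windows and not a site of binding, and the first Tcf7l2 start was GC-rich, at 72.8% G and C, where the internal start with the motif had 40.8%.

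Prkcd and Ramp3 take part in receptor signalling. Prkcd (ENSMUSG00000021948, chr14:30595354-30626210, minus strand) encodes protein kinase C δ, which diacylglycerol activates without calcium. Its level in WT replicates 1 to 5 was 23.7, 9.77, 129, 87.1 and 118 CPM, and in zQ175 replicates 1 to 5 it was 303, 38.1, 141, 80.4 and 7.84 CPM. In CK2a'(+/-) replicates 1 to 3 it was 134, 228 and 8.40 CPM, and in zQ175:CK2a'(+/-) replicates 1 to 5 it was 8.04, 27.4, 86.4, 3.87 and 160 CPM. This was the steepest of the members, with a 78.2-fold span over all libraries, and within a genotype the highest library exceeded the lowest 13.2-fold in WT, 38.6-fold in zQ175, 27.1-fold in CK2a'(+/-) and 41.2-fold in zQ175:CK2a'(+/-). Per kilobase of exon, its median of 15.1 CPM was the highest of the 9 members, followed by Plekhg1 at 8.37 and Ntng1 at 5.79 CPM per kilobase. Ramp3 (ENSMUSG00000041046, chr11:6658521-6677475, plus strand), a membrane protein that pairs with the calcitonin receptor-like receptor and sets its ligand preference, ran from 0.689 CPM (13 reads, zQ175:CK2a'(+/-) replicate 4) to 16.0 CPM (zQ175 replicate 1). WT replicate 3 at 13.9 CPM and CK2a'(+/-) replicate 2 at 13.4 CPM came close to that highest library. Ramp3 shares 101 exonic bases, 7.32% of its exonic length, with the antisense gene Gm11978, whose median was 0.0959 CPM.

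Ntng1, Plekhg1 and Synpo2 act at the membrane and the cytoskeleton. Ntng1 (ENSMUSG00000059857, chr3:109780040-110144011, minus strand) encodes netrin-G1, a lipid-anchored protein of thalamic axons that binds the ligand NGL-1 (Lrrc4c) on target neurons. It was at 14.1, 15.5, 67.4, 60.2 and 53.0 CPM in WT replicates 1 to 5 and at 240, 31.1, 83.0, 42.6 and 24.9 CPM in zQ175 replicates 1 to 5. It was at 86.8, 118 and 11.5 CPM in CK2a'(+/-) replicates 1 to 3 and at 12.0, 20.4, 56.2, 13.0 and 91.3 CPM in zQ175:CK2a'(+/-) replicates 1 to 5. As for Tcf7l2, zQ175 replicate 1 was the highest library, 2.04-fold above CK2a'(+/-) replicate 2, which in turn was above all the others. The ligand gene Lrrc4c, which was no member, moved between 89.6 and 132 CPM over the same libraries. Plekhg1 (ENSMUSG00000040624, chr10:3740364-3967303, plus strand), a guanine nucleotide exchange factor for small GTPases, ran from 24.9 CPM in CK2a'(+/-) replicate 3 to 237 CPM in zQ175 replicate 1, with 154 CPM in the next library. Synpo2 (ENSMUSG00000050315, chr3:123076519-123236149, minus strand), an actin-binding protein, had the narrowest span, 7.97-fold from 16.3 CPM in zQ175:CK2a'(+/-) replicate 4 to 130 CPM in zQ175 replicate 1.

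Tnnt1 and Calb2 belong to families of calcium-dependent proteins. Tnnt1 (ENSMUSG00000064179, chr7:4504570-4516382, minus strand), the slow skeletal form of troponin T, was at 4.23, 1.56, 36.1, 17.8 and 23.7 CPM in WT and at 37.5, 5.21, 15.2, 13.2 and 1.72 CPM in zQ175 (replicates 1 to 5). It was at 24.1, 40.2 and 2.33 CPM in CK2a'(+/-) replicates 1 to 3 and at 2.36, 3.08, 11.2, 2.23 and 25.3 CPM in zQ175:CK2a'(+/-) replicates 1 to 5. For this gene zQ175 replicate 1 was level with CK2a'(+/-) replicate 2 and WT replicate 3, and the genotypes overlapped throughout.

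Calb2 (ENSMUSG00000003657, chr8:110137502-110168210, minus strand), which encodes the calcium buffer calretinin, had another pattern. It was at 22.0, 1.40, 11.6, 1.91 and 3.80 CPM in WT replicates 1 to 5 and at 74.9, 4.34, 3.75, 1.19 and 3.65 CPM in zQ175 replicates 1 to 5. It stayed between 2.60 and 4.44 CPM in the 3 CK2a'(+/-) libraries and between 1.64 and 3.71 CPM in the 5 zQ175:CK2a'(+/-) libraries. Thus 3 libraries lay above 10 CPM, zQ175 replicate 1 and WT replicates 1 and 3, while CK2a'(+/-) replicate 2, second in the order of the other members, had 4.15 CPM. Over the 18 libraries, Pearson's r of log2 CPM between Calb2 and the mean of the other 8 members was 0.46 (Spearman's rank correlation 0.53), and 0.12 after leaving out the 2 libraries farthest from the median of that mean. The same r was between 0.93 and 0.97 for each of the other 8 members against the rest. These correlations describe 18 libraries of 1 labelled tissue and 1 preparation that differ in depth and in markers of other tissue, and each gene was chosen with its levels known. WT replicates 1 and 3 were also 2 of the 4 libraries with high Ttr, but the other 2, CK2a'(+/-) replicate 1 and zQ175:CK2a'(+/-) replicate 2, had 4.44 and 1.79 CPM of Calb2. The part of choroid plexus tissue in the level of Calb2 was not tested.

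The balance among the members in zQ175 replicate 1 was compared with that in the other libraries with much Prkcd. The comparison took the 10 libraries with the most Prkcd, a number chosen after the values were seen. Of the 8 ratios of a member to Prkcd, 4 in zQ175 replicate 1 lay inside the range of the other 9 libraries, those of Lef1, Tnnt1, Synpo2 and Plekhg1. The ratio of Plekhg1, for example, was 0.785 against 0.674 to 0.938. Those of Tcf7l2, Calb2 and Ntng1 lay above the range, and that of Ramp3 lay below it, at 0.0529 against 0.0557 to 0.108. The ratio of Tcf7l2 to Prkcd was 0.95 in zQ175 replicate 1 and between 0.356 and 0.559 in the other 9, which had 80.4 to 228 CPM of Prkcd. Tcf7l2 was 7.67 times Tnnt1 in zQ175 replicate 1 and 1.67 to 4.32 times in the other 9, and it was 3.91 times Lef1 against 2.02 to 2.41 times. In the 8 libraries with the least Prkcd (3.87 to 38.1 CPM), the ratio of Tcf7l2 to Prkcd was between 0.788 and 3.34 and that of Tcf7l2 to Tnnt1 between 4.34 and 11.2, so both ranges held the value of zQ175 replicate 1. The ratio of Tcf7l2 to Lef1 was between 1.05 and 2.43 in these 8, below its value in zQ175 replicate 1.

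**Figure D2:**
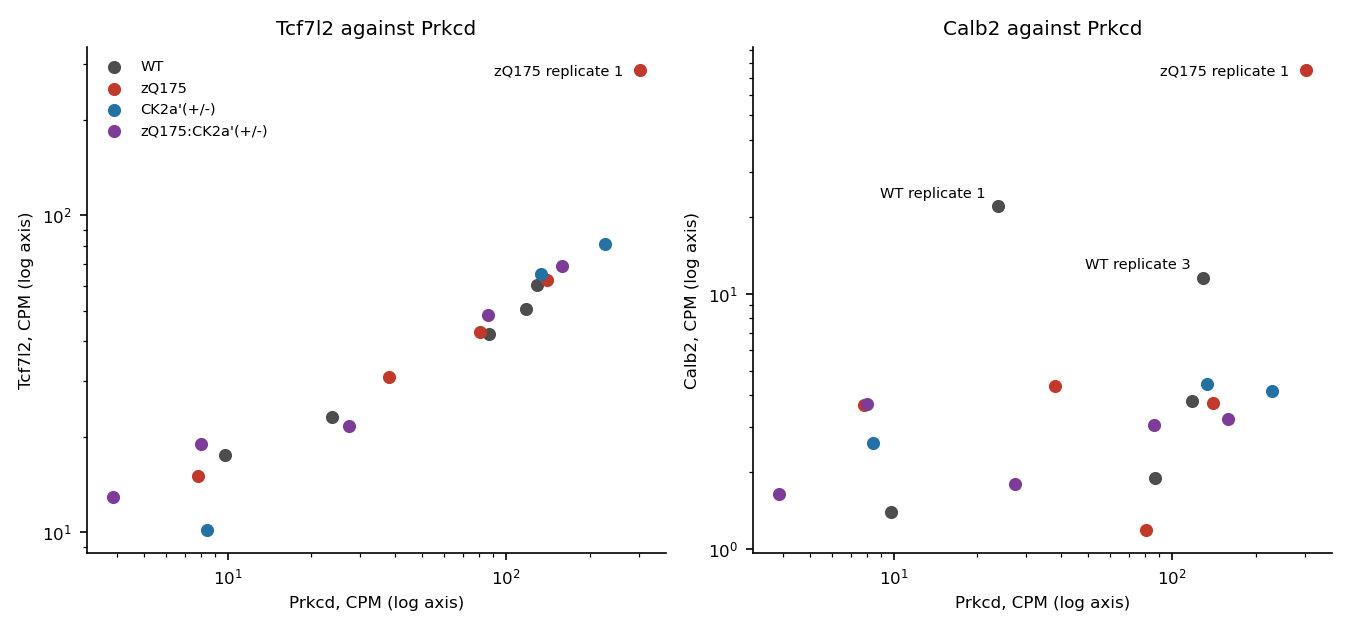
CPM of Tcf7l2 (left) and Calb2 (right) against CPM of Prkcd, both axes logarithmic, with 1 point per library coloured by genotype. Tcf7l2 is higher in the libraries where Prkcd is higher, with zQ175 replicate 1 at 287 CPM above the others, whereas Calb2 lies between 1.19 and 4.44 CPM in 15 libraries and above 10 CPM in zQ175 replicate 1 and WT replicates 1 and 3.

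The members were next set beside 12 other thalamic genes. zQ175 replicate 1 was the highest library for all 12 of them. Slc17a6, the glutamate transporter of thalamic neurons, was at 197 CPM there, against 45.2 CPM in the next library, a median of 21.5 CPM and a lowest value of 1.59 CPM. Gbx2, a homeobox factor of the developing thalamus, was at 16.1 CPM there, with a next value of 2.75, a median of 1.46 and a lowest value of 0.398 CPM. The gap to the next library was smallest for Vipr2, a receptor for vasoactive intestinal peptide, with 9.83 CPM in zQ175 replicate 1, 8.84 CPM in the next library, a median of 3.28 and a lowest value of 0.107 CPM. The orphan nuclear receptor gene Rora ran from 72.6 over a median of 146 to 431 CPM, the zinc finger factor gene Zic1 from 11.6 over 33.7 to 110 CPM, and the phospholipase gene Plcb4 from 40.4 over 99.6 to 343 CPM. Amotl1, an angiomotin-family scaffold, ran from 33.2 over 75.6 to 267 CPM, the T-type calcium channel gene Cacna1g from 16.2 over 50.7 to 187 CPM, and the phosphatase gene Ptpn3 from 6.33 over 28.5 to 118 CPM. The G-protein regulator gene Rgs16 ran from 0.0530 over 6.93 to 28.6 CPM. The homeobox genes Lhx9 and Shox2 had no read in 3 and 2 libraries and reached 21.4 and 62.4 CPM, over medians of 1.602 and 19.7 CPM. The summed level of these 12 genes was between 234 and 683 CPM in WT, 270 and 1792 CPM in zQ175, 212 and 888 CPM in CK2a'(+/-), and 220 and 745 CPM in zQ175:CK2a'(+/-). That of the 9 members was between 124 and 513, 113 and 1399, 96.4 and 758, and 90.1 and 572 CPM in the same order.

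The genes most like the members were found by Pearson's r of log2 CPM with the members' mean z-score over 18 libraries, among 16637 genes with a mean of at least 1 CPM. The 10 highest were Amotl1 (0.988), Zic1 (0.988), Patj (0.985), Plcb4 (0.984), Ccdc136 (0.979), Zdhhc22 (0.977), Adarb1 (0.971), Rora (0.971), Lhfp (0.969) and Kcnc2 (0.965). Spearman's rank correlation of these 10 was between 0.907 and 0.990, and r without the 2 farthest libraries, zQ175 replicate 1 and zQ175:CK2a'(+/-) replicate 4, was between 0.943 and 0.983. Amotl1, Zic1, Plcb4 and Rora belong to the other thalamic genes, of which 9 of 12 were among the 100 most alike. So were 2 of the 9 cortical genes, the transcription factor genes Cux2 (r = 0.920, rank 37) and Rorb (r = 0.899, rank 64), which were also highest in zQ175 replicate 1. The lowest of the thalamic list were Lhx9 (r = 0.80), Gbx2 (r = 0.66) and Shox2 (r = 0.59).

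Markers of other tissue around the striatum were high in zQ175 replicate 1 for some genes and not for others. Among 8 hypothalamic genes, the neuropeptide gene Pmch was at 29.2 CPM in zQ175 replicate 1 and at no more than 1.49 CPM in the other 17 libraries, the orexin gene Hcrt was at 1.69 CPM there and without a read in 15 libraries, and the transcription factor gene Sim1 was at 4.40 CPM there and at no more than 0.796 CPM in the others. Agrp was also highest there, at 0.281 CPM. The other 4 were not: the homeobox gene Otp was second there at 1.78 CPM after zQ175 replicate 2 at 2.03 CPM, the vasopressin gene Avp had no read there and was highest in WT replicate 1 at 0.946 CPM, the oxytocin gene Oxt was at 0.0936 CPM there and at 2.69 CPM in WT replicate 1, and Pomc was at 0.562 CPM there and reached 1.26 CPM in CK2a'(+/-) replicate 1. The summed level of the 8 hypothalamic genes, of which Pmch made up most in zQ175 replicate 1, was between 0.68 and 38.0 CPM in zQ175 and between 1.84 and 6.52 CPM in WT. In CK2a'(+/-) it was between 2.40 and 3.89 CPM, and in zQ175:CK2a'(+/-) between 0.96 and 3.51 CPM. The habenula adjoins the thalamus, and of 6 habenular genes, Gpr151 and Chrna3 were highest in zQ175 replicate 1. Gpr151, an orphan receptor, was at 0.983 CPM there, with a median of 0.207 CPM and no read in 3 libraries, and Chrna3, a nicotinic receptor subunit, was at 1.50 CPM, with a median of 0.610 and a lowest value of 0.0558 CPM. The other 4 were highest elsewhere, the transcription factor gene Pou4f1 in zQ175:CK2a'(+/-) replicate 2 (3.23 CPM; median 0.796, no read in 4 libraries) and Nwd2 in zQ175 replicate 5 (14.5 CPM; median 4.90, lowest 2.39). Chrnb4, another nicotinic subunit, was highest in WT replicate 3 (1.90 CPM; median 0.644, lowest 0.0444), and the tachykinin gene Tac2 in WT replicate 1 (7.02 CPM; median 0.938, lowest 0.0659). Pearson's r with the members' mean z-score was available for the 4 of these genes with a mean of at least 1 CPM. It was -0.02 for Pou4f1, 0.13 for Nwd2 and 0.14 for Tac2, and for Pmch it was 0.60, and 0.28 without the 2 farthest libraries.

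The mean log2 CPM of 11 genes of striatal projection neurons was lowest in zQ175 replicate 1, at 6.89, where the other libraries lay between 7.57 and 8.86. Drd1, the dopamine receptor of the direct pathway, was at 36.1 CPM there and between 59.9 and 174 CPM in the other libraries. The myelin genes Mbp and Mobp were also lowest there, at 1588 and 659 CPM against medians of 2479 and 1039 CPM. The mean log2 CPM of the myelin list that holds them was 8.38 there, little below 8.41 in zQ175 replicate 5. The mean of 5 hippocampal genes was second highest in zQ175 replicate 1, at 3.11, after zQ175 replicate 5 at 4.07. The part of tissue from outside the striatum in the level of any member was not tested.

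**Figure D3:**
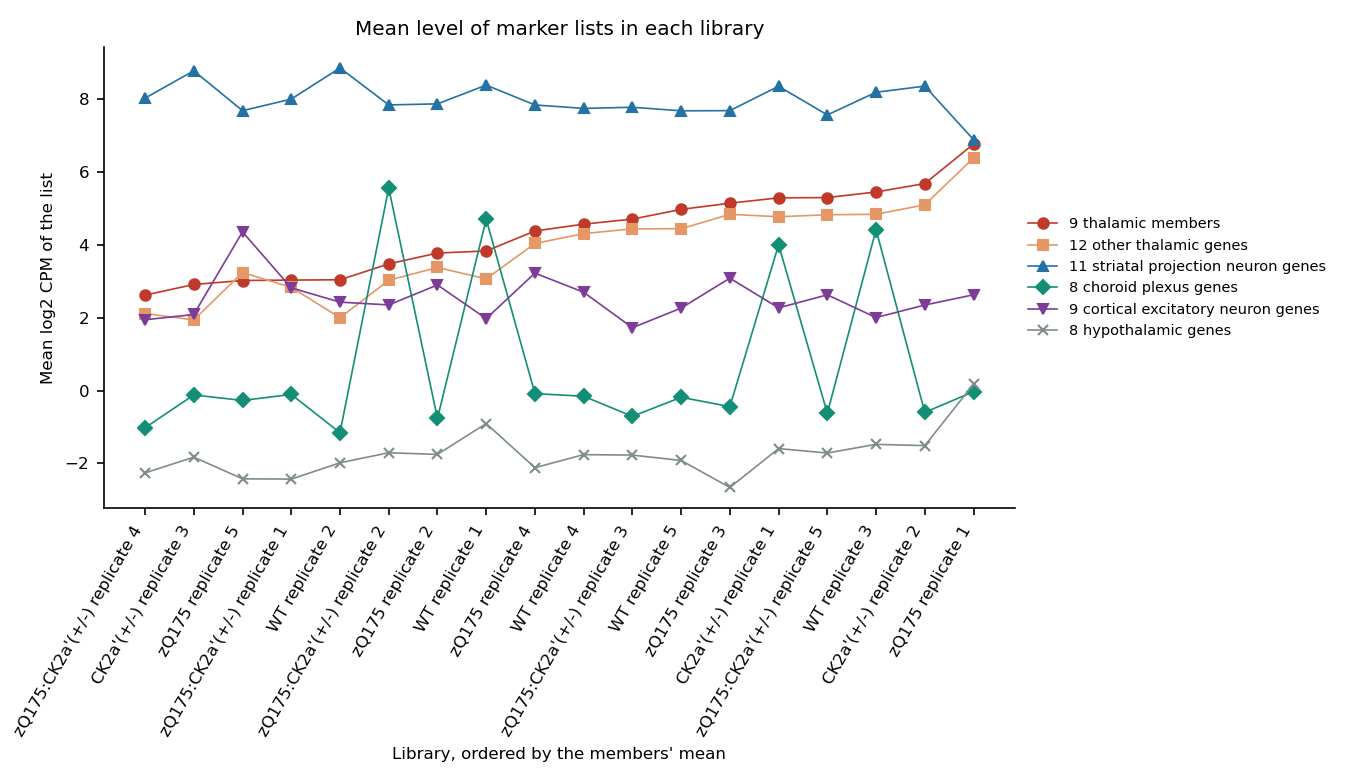
Mean log2 CPM of 6 marker lists (vertical axis) in each of the 18 libraries, ordered on the horizontal axis by the mean of the 9 thalamic markers. The 12 other thalamic genes follow the members, from 1.94 to 6.39, the choroid plexus genes are high in 4 libraries spread along the order, and the projection-neuron genes are lowest and the hypothalamic genes highest in zQ175 replicate 1.

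The genotype comparisons were fitted over all genes with edgeR's quasi-likelihood test and Benjamini-Hochberg adjustment, and a gene was called at an adjusted p under 0.1. Between zQ175 and WT, 1.10% of 20914 genes were called (81 higher and 149 lower in zQ175), and 0 of the 9 members were, with 0 at an unadjusted p under 0.05 and 0 by DESeq2, which called 5.15% of the genes it gave an adjusted p. The estimates were above 0 for 7 members, and their median was 0.63 on the log2 scale, where the median over all genes was 0.00. The largest was that of Tcf7l2, 1.18 ± 0.64 (SE, adjusted p = 0.426), followed by Calb2 with 1.13 ± 0.82 (SE, adjusted p = 0.585) and Ntng1 with 1.01 ± 0.67 (SE, adjusted p = 0.539). The estimates for Ramp3 and Tnnt1 were -0.10 ± 0.71 and -0.18 ± 0.80 (SE). The directions rested on 1 library, and the median was also lower, 0.40, without WT replicate 1 or without WT replicate 2. Without zQ175 replicate 1, the median was -0.14, Tcf7l2 was at -0.04 ± 0.52 and Calb2 at -1.32 ± 0.59 (SE), 8 of the 9 estimates were below 0, and again 0 members were called, with 1 (Calb2) at an unadjusted p under 0.05.

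In zQ175 against zQ175:CK2a'(+/-), which asks what the loss of 1 CK2α' allele does in the disease model, 0.0143% of the genes were called and 0 of the 9 members, by edgeR and by DESeq2 (0.146% of its genes called). All 9 estimates were above 0 (higher in zQ175), their median was 0.74 on the log2 scale, and 2 of 9 members had an unadjusted p under 0.05, where 6.27% of all genes did. These were Calb2, at 2.71 ± 0.89 (SE, adjusted p = 0.597), and Tcf7l2, at 1.36 ± 0.65 (SE, adjusted p = 0.780). Calb2 passed in 1 alternative, without the filter on low counts (adjusted p = 0.0525, where the 25 alternatives ranged up to 0.999). Without zQ175 replicate 1, Calb2 was at 0.26 ± 0.59 and Tcf7l2 at 0.14 ± 0.52 (SE), the median was 0.13, 6 estimates were above 0 and 3 below, and 0 members had an unadjusted p under 0.05. Without zQ175:CK2a'(+/-) replicate 5 the median was 1.63, and 4 members had an unadjusted p under 0.05. The share of all genes in that fit was not set beside this count, so nothing is read from it.

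In zQ175:CK2a'(+/-) against WT, 0.0143% of the genes and 0 of the 9 members were called, with 0 at an unadjusted p under 0.05 and 0 by DESeq2 (0.722% of its genes called). The 9 estimates were below 0, from -1.59 for Calb2 to -0.01 for Lef1, with a median of -0.24. Without WT replicates 4 and 5, a choice made after seeing the data, 5 estimates were above 0 and 4 below, and the median was 0.03. With 1 library left out, the median ran from -0.73 without zQ175:CK2a'(+/-) replicate 5, with 0 estimates above 0, to -0.06 without WT replicate 3 or without zQ175:CK2a'(+/-) replicate 4, with 4 estimates above 0 in each case. In CK2a'(+/-) against WT, 0.0143% of the genes and 0 of the 9 members were called, with 0 at an unadjusted p under 0.05 and 0 by DESeq2 (0.0293% of its genes called). The estimates were above 0 for 8 members, with a median of 0.50, and that of Calb2 was -1.11 ± 1.02 (SE). These directions depended on CK2a'(+/-) replicate 2, without which 4 estimates were above 0 and 5 below and the median was -0.02, whereas the median was 0.94 without CK2a'(+/-) replicate 3. Over the 25 alternatives the estimate of Calb2 ran from -1.64 to -0.29. The comparisons share libraries, so their values are not separate evidence. Over these 4 comparisons the standard errors of the members were between 0.43 and 1.02 on the log2 scale, so that a log2 fold change of 1 was about as large as 1 SE for the most variable members.

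**Figure D4:**
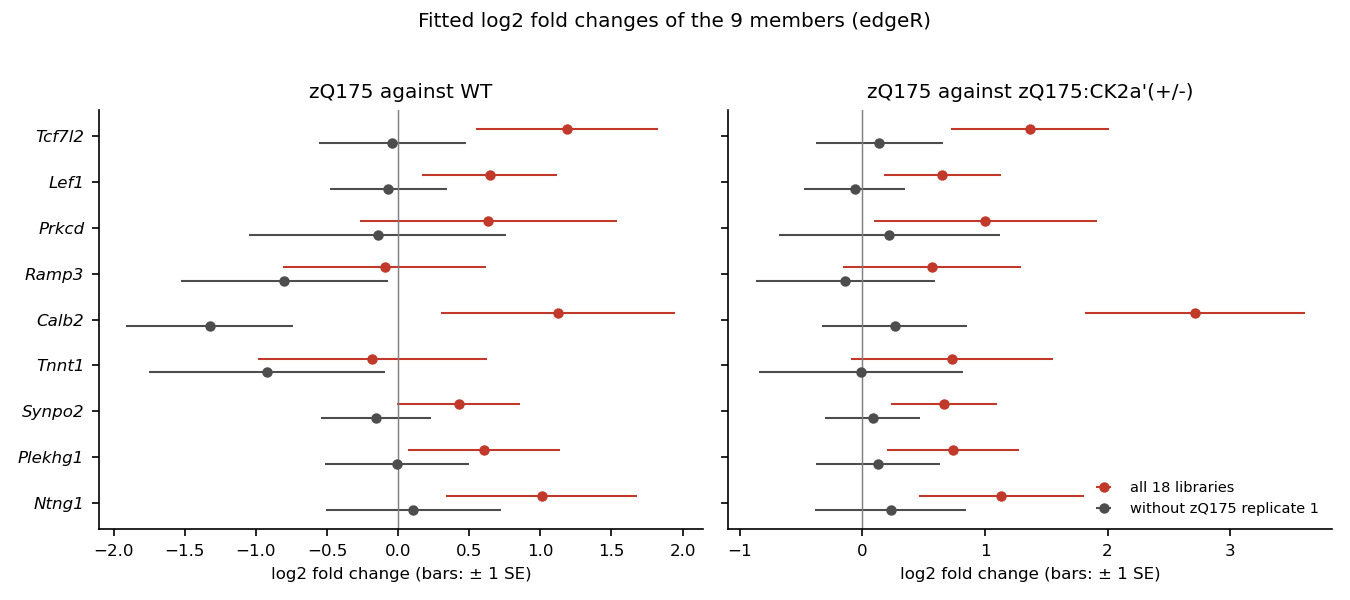
Fitted log2 fold change (horizontal axis, bars ± 1 SE) of each of the 9 thalamic markers in zQ175 against WT (left) and zQ175 against zQ175:CK2a'(+/-) (right), with all 18 libraries in red and without zQ175 replicate 1 in grey. Without that library the 9 estimates move towards 0 or below it, and that of Calb2 moves from 1.13 to -1.32 against WT and from 2.71 to 0.26 against zQ175:CK2a'(+/-).

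The 12 other thalamic genes gave 0 calls in each of the 4 comparisons, by edgeR and by DESeq2. At an unadjusted p under 0.05 there was 1 in zQ175 against WT (Gbx2, log2 fold change 1.78 ± 0.69, SE, adjusted p = 0.248), and there were 2 in zQ175 against zQ175:CK2a'(+/-) (Gbx2 and Lhx9) and 0 in the other 2 comparisons. Over all genes, the share with an unadjusted p under 0.05 was 13.9% in zQ175 against WT and 6.27% in zQ175 against zQ175:CK2a'(+/-). It was 9.13% in zQ175:CK2a'(+/-) against WT and 4.48% in CK2a'(+/-) against WT. Without zQ175 replicate 1, Gbx2 was at 0.04 ± 0.49 (SE) in zQ175 against WT. Their median log2 fold changes were 0.72 in zQ175 against WT and 0.90 in zQ175 against zQ175:CK2a'(+/-), beside 0.63 and 0.74 for the members, and without zQ175 replicate 1 they were -0.05 and 0.22, with 0 genes at an unadjusted p under 0.05. The count in zQ175 against zQ175:CK2a'(+/-) was 6 of 12 without zQ175 replicate 2 or without zQ175:CK2a'(+/-) replicate 5, where the median was 1.10 and 1.20. The share of all genes in those fits was not set beside this count, so nothing is read from it. In zQ175:CK2a'(+/-) against WT the median was -0.23, and it ran from -0.62 without zQ175:CK2a'(+/-) replicate 5 to 0.03 without WT replicate 3. In CK2a'(+/-) against WT it was 0.35, and it ran from -0.01 without CK2a'(+/-) replicate 2 to 0.79 without CK2a'(+/-) replicate 3.

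Genes of the members' own families were tested to see whether they varied with genotype. Of 47 such genes, 40 passed the filter on low counts, and 0 were called by edgeR in any of the 4 comparisons. In zQ175 against WT, 5 of the 40 had an unadjusted p under 0.05, all with estimates below 0, and in zQ175:CK2a'(+/-) against WT, zQ175 against zQ175:CK2a'(+/-) and CK2a'(+/-) against WT there were 2, 1 and 2. These counts stand beside 13.9%, 9.13%, 6.27% and 4.48% of all genes in the same order. The 2 with the lowest p were Plekhg4, an exchange factor like Plekhg1, with a log2 fold change of -1.37 ± 0.38 (SE, adjusted p = 0.106), and Ramp1, the partner of the calcitonin receptor-like receptor for calcitonin gene-related peptide, with -0.46 ± 0.15 (SE, adjusted p = 0.170). DESeq2, which called 5.15% of its genes in zQ175 against WT, called these 2 there and no family gene in the other comparisons. The 12 genes of TCF/LEF factors and Wnt signalling had estimates with a median of -0.03 (log2) in that comparison, and Axin2, a target of the pathway in many tissues, ran from 16.0 to 33.3 CPM over the 18 libraries. The other protein kinase C genes (8 genes, median -0.04), troponins (4 tested, median -0.05) and netrin-G genes with their ligands (4 genes, median 0.05) were likewise without a call. So were the receptor activity-modifying proteins with their receptors and ligands (5 tested, median -0.46), the EF-hand calcium buffers (2 tested, median -0.37), the exchange factors like Plekhg1 (4 tested, median -0.24) and Synpo, a relative of Synpo2 (-0.23).

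Genes on the marker lists for other cells were also called in zQ175 against WT. Tbr1, a transcription factor of deep cortical layers, and C1ql2, a complement-like synaptic protein of the dentate gyrus, were higher in zQ175, each the 1 call of its list (8 cortical and 5 hippocampal genes tested). Of 11 projection-neuron genes, 3 were called. These counts stand beside 1.10% of all genes called in this comparison. The projection-neuron genes Ppp1r1b, Adora2a and Penk (preproenkephalin) and the myelin genes Mbp and Mobp were lower. No gene at all was called in this comparison without WT replicate 3, without zQ175 replicate 5 or with the 2 groups fitted alone, so these calls did not hold there. C1ql2 was at 10.3 CPM in zQ175 replicate 5 and at no more than 2.53 CPM in the other libraries, the next being zQ175 replicate 1.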

How the data were processed

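The deposited file is 1 table of read counts per gene, in which the authors gave raw counts that were not normalized. Per the labels and the study's methods, the libraries were made from striatal total RNA with a stranded kit and sequenced as paired reads, trimmed with Trimmomatic, checked with FastQC, aligned to GRCm38 with HISAT2 (2.1.0) and counted with Subread (1.6.2) after removal of duplicated mappings and of reads with low mapping quality. The strand setting of the counting is not given in the sources used here. Filters on mapping quality lower the counts of genes with near-identical copies.

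Of 55421 gene identifiers, 55154 were paired with a symbol through a reference table. Counts were tested with edgeR (4.0.16; R 4.3.3, limma 3.58.1) by the quasi-likelihood test after TMM scaling, on the 20914 genes kept by filterByExpr, with all 18 libraries and genotype as the only factor, and adjusted by Benjamini-Hochberg over all genes tested. The study's own tool, DESeq2 (1.42.0), was an alternative. The tests were first tried on simulated data. CPM used TMM-scaled library sizes, and log2 CPM used a prior count of 2. Exon overlaps came from the GENCODE annotation of the same build and start-site windows from RefSeq. Counting error was not modelled for single values, and the depth, 13612381 to 22702547 reads per library, put the lowest member value at 13 reads.

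The members and all gene lists were chosen with earlier results of these data known. The text names all 9 members, each list gene past an adjusted p of 0.1 except 1 of the marker lists for other cells, which is not reported here, every gene of the other thalamic and habenular lists, and the 10 genes most like the members. A gene outside these rules was named after its values were seen. Each genotype's samples are separate mice according to the labels. Alternatives were DESeq2, its size factors, no filter on low counts, 2 groups only, replicate number as a block, an adjusted p of 0.05, no scaling, a prior count of 0.5 and leaving out each library. The libraries left out together were chosen after seeing the data.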

Additional observations from a re-analysis of the deposited data

Results flagged for a closer look

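Within each genotype of 5 mice, every member's CPM was tested for a single library far from the rest (Dixon's test at the 95% level, 27 tests), and 3 libraries' values passed, all of zQ175 replicate 1. Chance gives such a value in about 1 of 20 groups, but the members were chosen with these levels known, so the 3 values are a description and no evidence that zQ175 replicate 1 stands apart. Tcf7l2 was at 287 CPM in zQ175 replicate 1, where the other 4 zQ175 libraries lay between 15.0 and 62.4 CPM. Calb2 was at 74.9 CPM there, and the other 4 lay between 1.19 and 4.34 CPM. Ntng1 was at 240 CPM there, and the other 4 lay between 24.9 and 83.0 CPM. The members are correlated over libraries, so these 3 values are not separate events. The CK2a'(+/-) group of 3 was too small for this test.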

How the results depend on the processing

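No member and no other thalamic gene was called in any of the 4 comparisons under any alternative, with 1 exception, Calb2 in zQ175 against zQ175:CK2a'(+/-) without a filter on low counts (1 member). The folds of the highest library over the median of the rest moved by less than the spread between libraries under the other 2 scalings, as did the genotypes' mean log2 CPM of the members under those, the other prior count and each left-out library, and zQ175 replicate 1 was highest for 8 of 9 members under each scaling. The mean of the members in zQ175 was 4.62, between CK2a'(+/-) at 4.63 and WT at 4.37, and 4.08 without replicate 1, below WT. That of CK2a'(+/-) was 5.49 without replicate 3 and 4.10 without replicate 2.

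Counts over all genes moved more. In zQ175 against WT (230 genes), DESeq2 called 847, no filter 451, an adjusted p of 0.05 called 51, the 2 groups alone 0, no WT replicates 4 and 5 515, no zQ175 replicates 1 and 5 0, and leaving out 1 library between 0 (WT replicate 3 or zQ175 replicate 5) and 587 (WT replicate 2). The count was also moved by over 1.5 times, to 10 without WT replicate 1, 77 and 133 without zQ175 replicates 1 and 3, 153 without CK2a'(+/-) replicate 2, and 150 and 145 without zQ175:CK2a'(+/-) replicates 1 and 3. In zQ175:CK2a'(+/-) against WT (3 genes) the counts were 124, 85, 1 and 1, then 217 without WT replicates 4 and 5, and between 1 and 34. In zQ175 against zQ175:CK2a'(+/-) (3 genes) they were 39 by DESeq2, 51 without a filter and between 1 and 6 without 1 library. In CK2a'(+/-) against WT (3 genes) they were 11 by DESeq2, 19 without a filter, 0 with 2 groups, 1 without WT replicates 4 and 5, and between 1 and 9 without 1 library. Family genes in zQ175 against WT (0 called) numbered 2 by DESeq2 and 2 without a filter (Ramp1 and Plekhg4), 3 without WT replicates 4 and 5 (Prkcb, Plekhg4 and Tcf7), and between 0 and 2 without 1 library (Plekhg4 without WT replicate 4, Plekhg4 and Ramp1 without CK2a'(+/-) replicate 3). The causes were not tested. Calls of members rest on 3 to 5 mice per genotype, and the lowest member counts, 13 reads for Ramp3 and 18 for Calb2, limit their ratios.

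With the replicate number as a block, 98, 1, 1 and 1 genes were called in the 4 comparisons in the order above, and 0 members. Over 24 same-numbered pairs, the correlation of deviations from the genotype means lay between -0.136 and 0.1201. Differently numbered pairs were not set beside them, so these values do not settle whether equal numbers mark a pairing.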
